A study of Mus musculus with 10 samples.

Results

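The genes described here are Trp53, which encodes p53, and 9 of the genes that p53 switches on: Cdkn1a, Bax, Bbc3, Mdm2, Fas, Ccng1, Phlda3, Zmat3 and Perp. Each was taken by its symbol from 4 tables of mouse male germline RNA sequencing, and all 10 were found once in each table, among 36806 genes. The libraries came from Ago4-/- and Ago4+/+ littermates of the C57BL/6 strain, with 1 library of each genotype per material: whole testes of 3 days and of 8 days, leptotene/zygotene spermatocytes and pachytene spermatocytes, both of these from mice of 70 days. The Ago4 protein is an Argonaute, one of the proteins that small RNAs guide to their targets. How the Ago4 allele was made, how the spermatocytes were separated and how many mice went into a library are not given in the sources used here. The 4 tables are named day 3, pre-meiotic, leptotene/zygotene and pachytene, and which age of testis the pre-meiotic table holds is not stated. Each table sets a second condition against a first condition, and neither is tied to a genotype in the sources used here. Each condition is therefore called by its number, the same number need not mean the same genotype in every table, and no genotype was inferred from Ago4 itself.

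The p53 protein is a transcription factor that is kept scarce in unstressed cells and builds up after DNA damage and other stress. It then switches on genes that halt division and genes that start apoptosis, and it also switches on Mdm2, whose product marks p53 for destruction, so the pathway limits itself. In the mouse testis p53 has been linked to the removal of damaged germ cells. These tables measure mRNA only, and p53 is controlled to a large part as a protein.

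Values are FPKM, fragments per kilobase of transcript, scaled to the depth of the library, so levels can be set beside each other between genes. Ratios are log2 of second over first condition after adding 0.1 FPKM to each. With 1 library per condition there is no replicate error. The error given is the one implied by the authors' test, the size of their log2 fold divided by the size of their test statistic, and it covers counting and model error for a pair of libraries, not the spread between mice. Depth per library is not given, but the smallest steps among low values put the first over the second library at 1.17 times the depth in the day 3 table, 0.674 in the pre-meiotic, 0.920 in the leptotene/zygotene and 1.91 in the pachytene table.

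Ago4, listed under its older symbol Eif2c4, had 1.23 FPKM in the second and 0.897 FPKM in the first condition at day 3, 3.34 and 2.53 FPKM in pre-meiotic material, 3.26 and 1.67 FPKM at leptotene/zygotene and 12.1 and 4.37 FPKM at pachytene. It passed a q-value of 0.05 in the last 2 of these, by the authors' deposited table. The markers of the cell types did not plainly follow the names of the spermatocyte tables. Markers of pachytene cells summed to 6141 and 6456 FPKM in the second and first condition of the leptotene/zygotene table and to 7094 and 7106 FPKM in the pachytene table. Markers of spermatids, the haploid cells after meiosis, summed to 53968 and 45707 FPKM in the second and first condition of the leptotene/zygotene table, but to 8996 and 6910 FPKM in the pachytene table. Markers of leptotene and zygotene cells summed to only 113 and 133 FPKM in the table of that name, against 353 and 361 FPKM in the pachytene table and 125 and 218 FPKM in the pre-meiotic table. The table labelled leptotene/zygotene thus carried high levels of markers of later cells, and in its second condition the pachytene table had more spermatid than pachytene marker signal. The stage counts and the correlations that rest on the leptotene/zygotene table are given below also without it. The orders of the tables by level are not. In what follows, leptotene/zygotene names this table and not a stage that its markers bear out. In the day 3 table the markers of spermatogonia summed to 43.4 FPKM in the second and 72.1 FPKM in the first condition, with 3 of 6 lower in the second condition by the authors' deposited table, and no marker of Sertoli, Leydig, myoid or endothelial cells was at 0 in both conditions of any table. The marker Hist1h1t of pachytene cells was at 0 in both conditions of the pre-meiotic table.

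**Figure D1:**
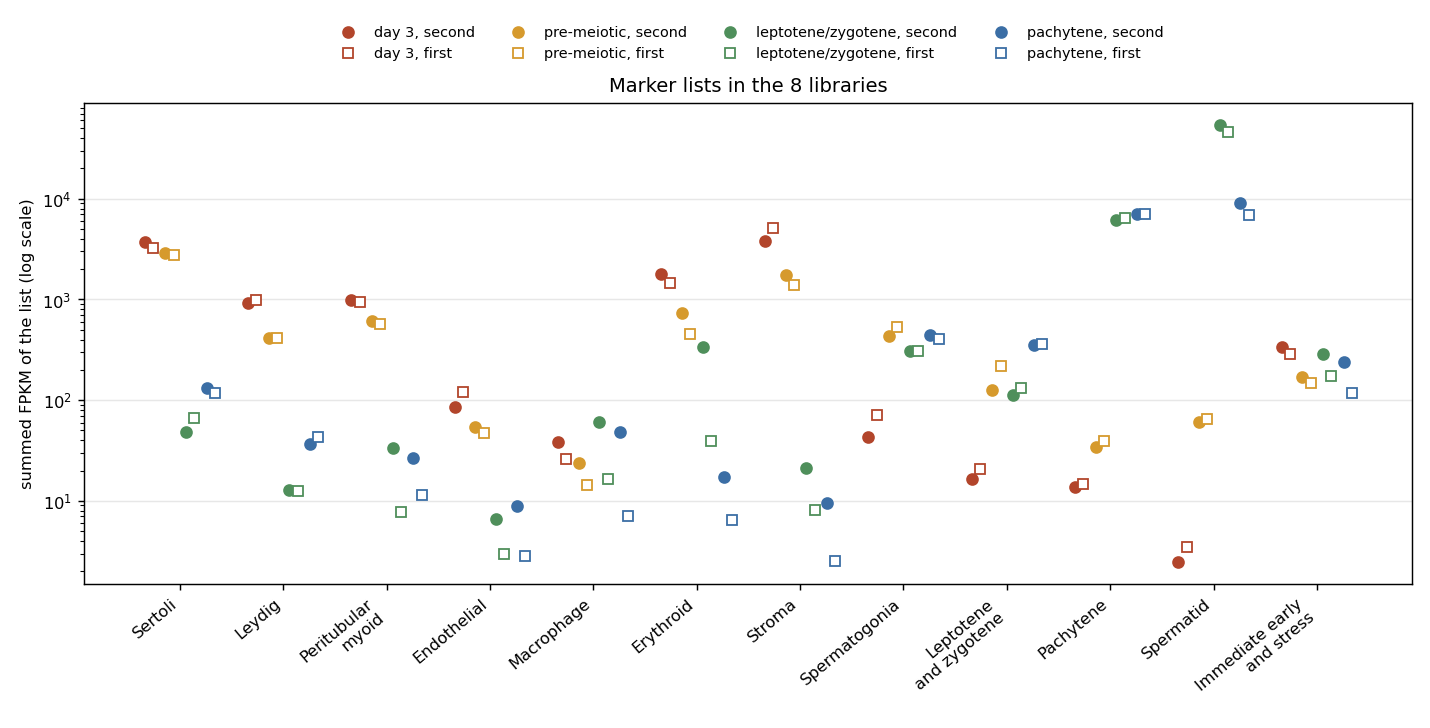
Summed FPKM (log scale) of each marker list in the second condition (filled circles) and the first condition (open squares) of the 4 tables. Spermatid markers reach 53968 FPKM in the leptotene/zygotene table and 8996 FPKM in the pachytene table, and Sertoli markers reach 3681 FPKM at day 3.

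The tables give each gene by its Ensembl identifier and by its locus, counted here from 1, in a genome build that the sources used here do not name. The transcription factor Trp53 (ENSMUSG00000059552) lies on chromosome 11, 69393861 to 69405375, and the arrest gene Cdkn1a (ENSMUSG00000023067) on chromosome 17, 29227924 to 29237667. Of the apoptosis genes, Bax (ENSMUSG00000003873) lies on chromosome 7, 52717065 to 52722268, Bbc3 (ENSMUSG00000002083) on chromosome 7, 16894965 to 16903554, and Fas (ENSMUSG00000024778) on chromosome 19, 34365149 to 34402260. Phlda3 (ENSMUSG00000041801) lies on chromosome 1, 137662696 to 137665713, and Perp (ENSMUSG00000019851) on chromosome 10, 18564877 to 18576879. The feedback gene Mdm2 (ENSMUSG00000020184) lies on chromosome 10, 117125944 to 117147814, Ccng1 (ENSMUSG00000020326) on chromosome 11, 40562054 to 40568813, and Zmat3 (ENSMUSG00000027663) on chromosome 3, 32233718 to 32264600.

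Promoter windows show where the letters that p53 reads occur near these genes. Windows of 250 bases before to 50 bases after each annotated start came from RefSeq on GRCm38.p6, with the first of those 50 bases as position 0. They were found for 8 of the 10 genes in 11 windows, and not for Zmat3 and Perp. The motif searched was the p53 consensus decamer: a 4-base core such as CATG, which has C and G at its ends and only A or T between them, with 3 purines before it and 3 pyrimidines after it, a pattern that reads the same on both strands. It occurred in 5 of the 8 genes (Trp53, Cdkn1a, Bax, Mdm2 and Ccng1), each in 1 window. In the whole promoter set it occurred in 8.36% of all 32851 windows and in 2582 of 27025 genes. A pair of decamers with at most 13 bases between them, the full form of a p53 site, occurred in Cdkn1a alone among these genes and in 0.0731% of all windows. A looser form made of the same units has the cores exact, the decamers adjacent and up to 3 of the other 12 letters off. It occurred in Bbc3, Trp53 and Cdkn1a and in 0.572% of all windows. Cdkn1a and Bbc3 have more than 1 annotated start. The other window of Cdkn1a (chr17:29093519-29093818) held no match of any form. The same held for the other windows of Bbc3 (chr7:16310011-16310310 and chr7:16310181-16310480). By gene, the full form occurred in 20 and the looser form in 182 of the 27025. A match describes letters and is not a binding site, and known p53 elements of several of these genes, such as Mdm2, lie inside the gene, beyond these windows.

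The windows of Cdkn1a and Bbc3 are printed whole, since these are the genes with the fullest match and with the lowest q-value at day 3. Cdkn1a is on the plus strand at chr17:29090729-29091028, with matches from position -73 to -32. Bbc3 is on the plus strand at chr7:16309333-16309632, with its match from position -97 to -78. The stretch around the match is printed for Trp53 (plus strand, chr11:69580269-69580318, from position -75), Bax (minus strand, chr7:45467075-45467114, from position -201), Mdm2 (minus strand, chr10:117710920-117710959, from position -186) and Ccng1 (minus strand, chr11:40755447-40755486, from position -185). Capitals mark the matched decamers, exact in Bax, Mdm2 and Ccng1, and in Bbc3 and in the later unit of Trp53 and of Cdkn1a with letters outside the cores off.
Cdkn1a: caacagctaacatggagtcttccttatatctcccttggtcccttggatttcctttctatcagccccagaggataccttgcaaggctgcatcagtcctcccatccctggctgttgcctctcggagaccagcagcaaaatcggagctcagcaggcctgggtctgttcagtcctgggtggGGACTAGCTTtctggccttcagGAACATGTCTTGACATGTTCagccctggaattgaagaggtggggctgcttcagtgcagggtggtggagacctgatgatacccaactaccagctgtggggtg
Bbc3: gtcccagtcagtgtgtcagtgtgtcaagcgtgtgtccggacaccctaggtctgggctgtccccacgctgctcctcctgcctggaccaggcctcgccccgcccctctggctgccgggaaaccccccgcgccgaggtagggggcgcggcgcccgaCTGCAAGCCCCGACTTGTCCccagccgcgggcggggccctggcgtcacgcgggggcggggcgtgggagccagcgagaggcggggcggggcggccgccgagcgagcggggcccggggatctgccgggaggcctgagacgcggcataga
Trp53: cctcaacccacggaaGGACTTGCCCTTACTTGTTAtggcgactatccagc
Bax: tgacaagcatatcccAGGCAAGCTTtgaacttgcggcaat
Mdm2: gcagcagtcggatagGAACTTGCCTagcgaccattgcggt
Ccng1: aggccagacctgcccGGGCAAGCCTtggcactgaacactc

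In the day 3 testis, p53 itself, its main arrest target and 4 of its other targets were higher in the second condition. Of the 10 genes, 6 passed the authors' q-value of at most 0.05 as higher and 0 as lower. At day 3, 4.8% of all genes passed as higher and 9.97% as lower. Here and below, shares of all genes past the q-value are of the genes that the authors tested, 24020 at day 3. By size, 2 of the 10 were at least 2-fold higher and 0 at least 2-fold lower, where 3.81% of all genes with at least 1 FPKM in a condition were that much higher and 7.72% that much lower. The median log2 ratio of the 10 genes was 0.60, and that of 17561 genes was 0.049. Summed FPKM at day 3 was 1347950 in the second and 1042460 in the first condition. The upper quartiles, over 10413 genes, were 68.3 and 65.1 FPKM. The sums lay closer in the other tables. They were 731242 and 751475 in the pre-meiotic, 1048650 and 1000210 in the leptotene/zygotene and 789420 and 827870 in the pachytene table. The part of the unequal day 3 sums in the ratios was not tested. Testes are mixtures of cells, and in such bulk samples fewer cells of a type and less RNA per cell cannot be told apart.

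Trp53 was at 91.8 FPKM in the second condition and at 68.1 FPKM in the first at day 3, a log2 ratio of 0.43 (implied error 0.13), with q = 0.0134 in the authors' deposited table. It was one of the well expressed genes of the tissue, at the 90.9 percentile of detected genes in the second condition and the 88.7 percentile in the first. Cdkn1a, whose product p21 inhibits cyclin-dependent kinases and so halts the cell cycle, had 13.9 FPKM in the second and 6.96 FPKM in the first condition. That is 1.98-fold, a log2 ratio of 0.99 (implied error 0.26), just short of the 2-fold rule, with q = 0.00173 in the authors' deposited table.

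Among the genes of apoptosis, Bbc3, Fas, Bax and Phlda3 passed as higher and Perp did not. Bbc3 encodes PUMA, a BH3-only protein that frees the killer proteins of the Bcl2 family, and had 12.9 FPKM in the second and 5.81 FPKM in the first condition. Its ratio was 2.20-fold, a log2 ratio of 1.14 (implied error 0.23), with q = 2.73e-05 in the authors' deposited table. Fas, the death receptor at the cell surface, had 4.04 FPKM in the second and 1.37 FPKM in the first condition, 2.82-fold, the largest ratio among the 10 genes at day 3 (log2 1.49, implied error 0.39). The authors' deposited table gives it q = 0.00128. Bax, a killer protein that opens the outer mitochondrial membrane, was far more abundant, at 106 FPKM in the second and 71.0 FPKM in the first condition. Its log2 ratio was 0.58 (implied error 0.18), with q = 0.0165 in the authors' deposited table. Phlda3, whose product competes with the kinase Akt for membrane lipids and so blocks a survival signal, had 87.8 FPKM in the second and 48.1 FPKM in the first condition (log2 0.87, implied error 0.20), with q = 0.000196 in the authors' deposited table. Perp, a membrane protein of desmosomes and a p53 target, was low at 1.37 FPKM in the second and 0.854 FPKM in the first condition. Its log2 ratio of 0.62 (implied error 0.42) did not pass, with q = 0.294 in the authors' deposited table.

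The genes that feed back on p53 or shape RNA did not pass at day 3. Mdm2, the ubiquitin ligase that marks p53 for destruction, was the one gene of the 10 with a ratio below 0, at 40.02 FPKM in the second and 46.3 FPKM in the first condition. Its log2 ratio was -0.21 (implied error 0.14), with q = 0.318 in the authors' deposited table. Ccng1, cyclin G1, which acts with a phosphatase on Mdm2, had 37.8 FPKM in the second and 28.7 FPKM in the first condition (log2 0.40, implied error 0.21), with q = 0.211 in the authors' deposited table. Zmat3, a zinc finger protein that binds RNA, had 7.16 and 6.38 FPKM in the second and first condition (log2 0.16, implied error 0.22), with q = 0.670 in the authors' deposited table. Mdm2 mRNA stood at 0.436 of Trp53 mRNA in the second and at 0.681 in the first condition.

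The day 3 ratio moved with the length of the locus over all genes. The genes with at least 1 FPKM in a condition were put into 6 equal groups by locus span. Shares given by span group are of these genes. The median log2 ratio was 0.37 in the shortest group, then 0.24, 0.096, -0.049 and -0.20, and -0.25 in the longest. The span groups lay closer together in the other tables: over the 6 groups the medians ran from -0.020 to 0.012 in the pre-meiotic, from -0.078 to -0.048 in the leptotene/zygotene and from -0.048 in the longest to 0.087 in the shortest group of the pachytene table. Most of the p53 genes are short. Phlda3, at 3.02 kb, fell in the shortest group, and Bax (5.204 kb), Ccng1 (6.76 kb), Bbc3 (8.59 kb), Cdkn1a (9.74 kb), Trp53 (11.5 kb) and Perp (12.003 kb) in the next, in which 10.7% of genes passed as higher and 3.21% as lower. Mdm2 spans 21.9 kb, Zmat3 30.9 kb and Fas 37.1 kb. Set against the median of its own span group, a centring chosen after seeing the data, Fas stood 1.54 above on the log2 scale, Bbc3 0.90, Cdkn1a 0.75 and Phlda3 0.50. The same difference was 0.39 for Perp, 0.34 for Bax, 0.21 for Zmat3, 0.19 for Trp53 and 0.16 for Ccng1, and it was -0.31 for Mdm2. Fas lay at the 98.7 percentile of its span group, Bbc3 at 97.6 and Cdkn1a at 96.6, but Trp53 at 72.1. After that centring 1 gene, Fas, was still past 2-fold, and the median of the 10 genes was 0.36. The part of locus span in the day 3 result was not tested beyond this.

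**Figure D2:**
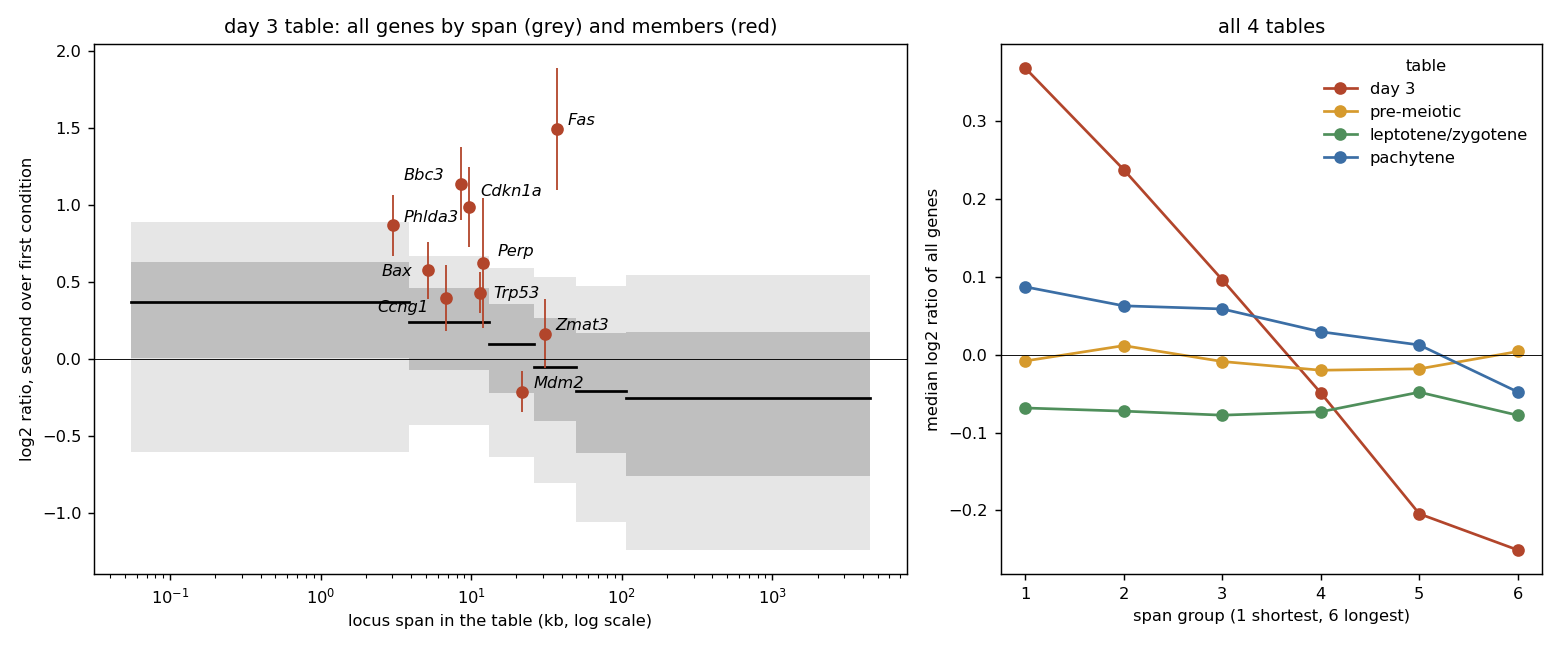
Left, day 3 log2 ratio (second over first condition) against locus span (kb, log scale): black lines are the medians of all genes in 6 span groups, dark and light grey bands their middle 50% and 80%, and red points the 10 p53 genes with bars of 1 implied error. Fas, Bbc3, Cdkn1a and Phlda3 stand 0.50 to 1.54 above their group medians. Right, group medians in the 4 tables, which run from 0.37 in the shortest to -0.25 in the longest group at day 3.

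Other differences stood beside these at day 3. Stroma markers summed to 3806 FPKM in the second and 5116 FPKM in the first condition, with 1 of 5 lower by the authors' deposited table, and endothelial markers to 85.6 and 121 FPKM, with 2 of 5 lower. Leydig markers summed to 913 FPKM in the second and 985 FPKM in the first condition, with 2 of 6 lower and 1 higher by the authors' deposited table. Sertoli markers summed to 3681 FPKM in the second and 3249 FPKM in the first condition, with 1 of 7 lower by the authors' deposited table. The macrophage markers, whose summed level was 38.1 FPKM in the second and 26.2 FPKM in the first condition, had 2 of 6 higher by the authors' deposited table. The 15 immediate early and stress genes, listed here with sample handling in mind, summed to 341 FPKM in the second and 290 FPKM in the first condition. Of these, 2 were higher and 1 lower, and whether handling moved them was not tested. The part of all these differences in the p53 result was not tested.

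In the pre-meiotic table the 10 genes were close to equal in the pair of libraries. None of the 10 passed the authors' q-value in either direction in the authors' deposited table made with Cuffdiff, and 0 had an unadjusted p of at most 0.05. Over all genes 0.471% passed as higher and 0.68% as lower. None of the 8 genes with at least 1 FPKM was past 2-fold, where 4.22% of all genes were that much higher and 4.5% that much lower. Their median log2 ratio was 0.0019, and that of all genes was -0.0077. Some cell markers did differ in this pair, by the authors' deposited table. Leptotene and zygotene markers summed to 125 FPKM in the second and 218 FPKM in the first condition (4 of 6 lower). Spermatogonia markers summed to 431 and 535 FPKM (2 of 6 lower). Erythroid markers summed to 730 and 457 FPKM (4 of 5 higher) and stroma markers to 1739 and 1379 FPKM (2 of 5 higher). Their part in the p53 values was not tested.

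Trp53 had 34.0 FPKM in the second and 35.5 FPKM in the first condition of the pre-meiotic table, Bax 57.9 and 60.4 FPKM, and Phlda3 29.6 and 32.5 FPKM. Mdm2 had 57.1 and 62.6 FPKM, and Ccng1 36.1 and 30.9 FPKM. Of the genes that were higher in the second condition at day 3, Cdkn1a had 4.14 and 3.71 FPKM, Bbc3 2.46 and 2.35 FPKM, and Fas 0.879 and 0.979 FPKM. Zmat3 had 2.98 and 2.53 FPKM and Perp 0.664 and 0.617 FPKM. Their log2 ratios lay between -0.14 for Fas and 0.23 for Zmat3. Their implied errors ran from 0.13 for Bax to 0.82 for Perp.

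At leptotene/zygotene 0 of the 9 tested genes passed the authors' q-value in the authors' deposited table made with Cuffdiff, and 0 had an unadjusted p of at most 0.05. Over all genes 0.804% passed as higher and 1.33% as lower. Past 2-fold, 1 of 8 genes was lower and 0 were higher, where 6.36% of all genes were higher and 7.4% lower. The one was Phlda3, at 0.812 FPKM in the second and 1.87 FPKM in the first condition, whose log2 ratio of -1.11 is smaller than its implied error of 1.27. The authors' deposited table gives Phlda3 q = 0.784. The median log2 ratio of the 8 genes was -0.27 and that of all genes -0.070.

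Most p53 genes were low in the table labelled leptotene/zygotene, in both conditions. Trp53 had 2.14 FPKM in the second and 2.71 FPKM in the first condition, Bax 1.26 and 1.77 FPKM, and Ccng1 1.17 and 1.64 FPKM. Cdkn1a had 2.27 and 2.63 FPKM, and Bbc3 1.77 and 1.65 FPKM. Fas had 0.131 and 0.660 FPKM, and Perp 0.297 and 0.108 FPKM and was marked as not tested in the authors' deposited table. Mdm2 and Zmat3 were the exceptions: Mdm2 had 121 FPKM in the second and 134 FPKM in the first condition (log2 -0.15, implied error 0.12), and Zmat3 had 9.86 and 8.25 FPKM (log2 0.25, implied error 0.52).

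At pachytene 0 of the 10 genes passed the authors' q-value in the authors' deposited table made with Cuffdiff, and 1, Zmat3, had an unadjusted p of at most 0.05. Over all genes 0.614% passed as higher and 1.01% as lower. None of 8 genes was past 2-fold, where 4.49% of all genes were higher and 6.16% lower. The median log2 ratio was -0.016, and that of all genes was 0.033.

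Zmat3 had 6.95 FPKM in the second and 11.6 FPKM in the first condition at pachytene, a log2 ratio of -0.74 (implied error 0.34), with p = 0.0283 and q = 0.347 in the authors' deposited table. Mdm2 was nearly equal, at 185 and 174 FPKM in the second and first condition (log2 0.087, implied error 0.13). Bbc3 had 0.475 FPKM in the second and 1.02 FPKM in the first condition, a log2 ratio of -0.96 that is near its implied error of 0.83. Perp had 1.57 and 0.824 FPKM, a log2 ratio of 0.86 with an implied error of 0.62. Trp53 had 3.96 and 4.31 FPKM, Bax 4.71 and 3.74 FPKM, Cdkn1a 2.42 and 2.07 FPKM, and Ccng1 2.00 and 2.30 FPKM. Phlda3 had 0.8998 and 0.788 FPKM and Fas 0.287 and 0.150 FPKM. The pair of pachytene libraries also differed in the immediate early and stress genes. They summed to 238 FPKM in the second and 117 FPKM in the first condition, with 8 of 15 higher by the authors' deposited table. At leptotene/zygotene the same genes summed to 290 and 174 FPKM, with 9 higher. Markers of other cells differed in the same pairs. At pachytene the myoid markers summed to 26.7 FPKM in the second and 11.5 FPKM in the first condition (3 of 5 higher by the authors' deposited table), the endothelial markers to 8.97 and 2.86 FPKM (3 of 5 higher) and the macrophage markers to 48.2 and 7.001 FPKM (1 of 6 higher). At leptotene/zygotene the myoid markers summed to 33.5 FPKM in the second and 7.84 FPKM in the first condition (4 of 5 higher by the authors' deposited table), the erythroid markers to 336 and 39.6 FPKM (4 of 5 higher) and the macrophage markers to 60.7 and 16.5 FPKM (2 of 6 higher). The part of these genes in the values of the p53 genes was not tested.

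**Figure D3:**
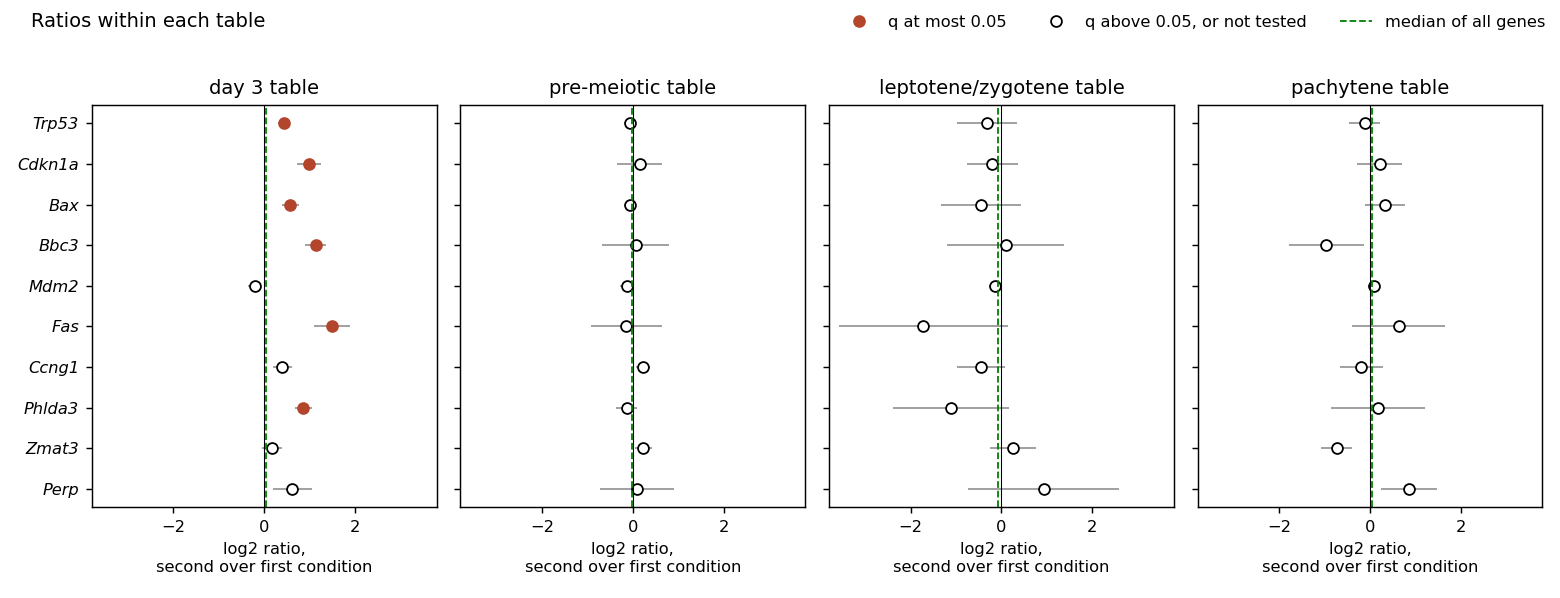
Log2 ratio of the 10 genes, second over first condition, in each of the 4 tables, with bars of 1 implied error. Filled points passed the authors' q-value of 0.05, which 6 genes did at day 3 and none in the other tables. The dashed green line is the median of all genes.

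Across the tables, Trp53, Bax, Ccng1 and Phlda3 were lower in both spermatocyte tables than in pre-meiotic material, at a share of the 10 genes near that of all genes, while Zmat3 was higher in both. The tables may have been scaled separately, so levels across them are a description, and a gene is counted only where both values of a table were at least 2 times both values of the other. The pre-meiotic table had 0 of the 10 genes higher than the day 3 table and 2 lower, Bbc3 and Zmat3, where 8.31% of all genes were higher and 14.9% lower. Trp53 fell just outside, since its nearest values were 35.5 FPKM in the pre-meiotic and 68.1 FPKM in the day 3 table.

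The leptotene/zygotene table had 4 of 8 genes lower than the pre-meiotic table and 1 higher, where 49.7% of all genes were lower and 24.4% higher. The 4 were Trp53, Bax, Ccng1 and Phlda3, and the 1 was Zmat3. The share of p53 genes that was lower was thus near that of all genes. By the mean of its 2 values, the level in the pre-meiotic table was 39.1 times that in the leptotene/zygotene table for Bax, 23.8 times for Ccng1, 23.2 times for Phlda3 and 14.4 times for Trp53. The pachytene table had 2 of 9 genes higher than the leptotene/zygotene table, Bax and Perp, and 0 lower, where 11% of all genes were higher and 7.24% lower.

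The same genes were set against each other without the leptotene/zygotene table, a comparison added after seeing the data. The pachytene table had 5 of 9 genes lower than the pre-meiotic table, Trp53, Bax, Bbc3, Ccng1 and Phlda3, and 2 higher, Mdm2 and Zmat3. Over all genes 44.6% were lower and 24.3% higher.

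Mdm2 had its highest mean level in the pachytene table, then in the leptotene/zygotene, the pre-meiotic and last the day 3 table. This is an order of level, not of stage, and values next to each other in it did not overlap. The pachytene mean was 4.16 times the day 3 mean. Mdm2 stood at the 96.3 percentile of detected genes in both pachytene libraries. At day 3 it stood at the 80.8 percentile in the second and the 83.5 percentile in the first condition. Since Trp53 moved the other way, Mdm2 mRNA was 1.68 and 1.76 times Trp53 mRNA in the second and first condition of pre-meiotic material, 56.6 and 49.5 times at leptotene/zygotene, and 46.7 and 40.4 times at pachytene. Mdm2 made up 88.8% and 86.6% of the summed FPKM of the 10 genes at pachytene, but 9.94% and 16.3% at day 3.

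The other genes fell into groups by their order. Trp53 and Bax were highest in the day 3 table, then in the pre-meiotic, pachytene and leptotene/zygotene tables. Tables next to each other in this order of level did not overlap. Phlda3 had the widest range, its day 3 mean being 80.5 times its pachytene mean, and its leptotene/zygotene and pachytene values overlapped. Cdkn1a, Bbc3 and Fas were also highest at day 3 and had their lowest means at pachytene. The day 3 mean was 4.65 times the pachytene mean for Cdkn1a, 12.5 times for Bbc3 and 12.4 times for Fas. The leptotene/zygotene and pachytene values of Cdkn1a and of Fas overlapped, and those of Bbc3 did not. The pre-meiotic values of Ccng1, 30.9 and 36.1 FPKM, lay between its day 3 values, 28.7 and 37.8 FPKM. Zmat3 was lowest in pre-meiotic material, and its pachytene values overlapped those at leptotene/zygotene and those at day 3. Perp stayed at or below 1.57 FPKM in every library, and its day 3 and pachytene values overlapped.

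**Figure D4:**
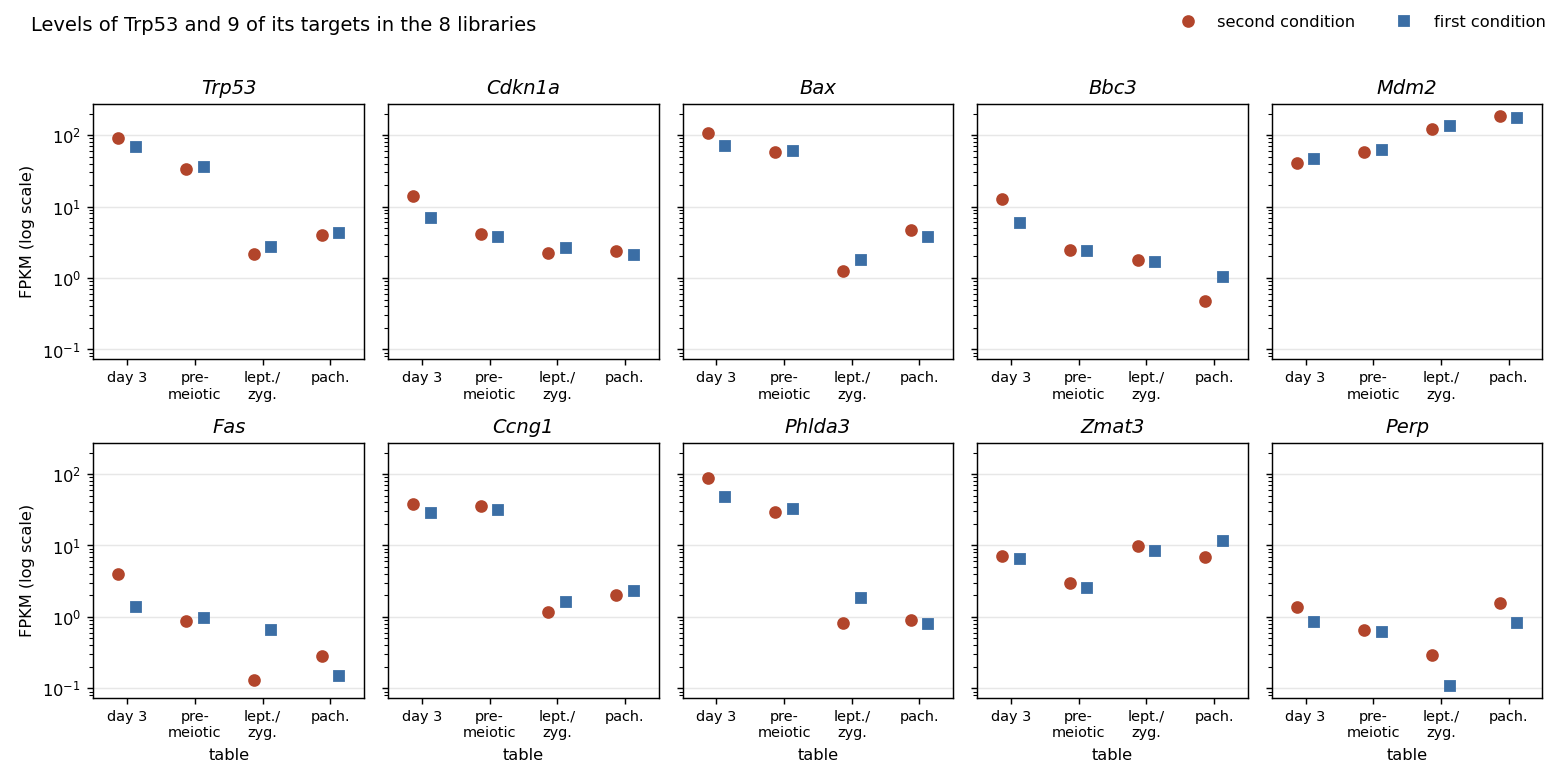
FPKM (log scale) of the 10 genes in the second condition (red circles) and the first condition (blue squares) of the 4 tables. Trp53 is at 2.14 and 2.71 FPKM in the table labelled leptotene/zygotene, and Mdm2 is at 185 and 174 FPKM in the pachytene table.

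The genes whose pattern was most like that of Trp53 over the 8 libraries, by Pearson correlation of log2(FPKM + 0.1) among 13143 genes, were Inha (r = 0.999), Arhgef25 (r = 0.999) and Tgfb1 (r = 0.999). Inha encodes a subunit of inhibin, a Sertoli cell hormone, and is one of the Sertoli markers used here. For Cdkn1a they were Mrpl30 (r = 0.988), Chmp4b (r = 0.988) and Rpl37a (r = 0.986). Among the p53 genes, Bax (r = 0.988), Ccng1 (r = 0.978) and Phlda3 (r = 0.976) were closest to Trp53, and Mdm2 was opposite (r = -0.937). Over the 6 libraries without the leptotene/zygotene table, added after seeing the data, these were 0.985 for Bax, 0.960 for Ccng1, 0.993 for Phlda3 and -0.997 for Mdm2, and the 6 genes named above stayed between 0.985 and 0.9998. Perp changed sign, with r = 0.494 over 8 and r = -0.22 over 6 libraries. Such values describe the 4 kinds of material, which the libraries share in pairs. Markers of several cell types moved the same way. Sertoli markers summed to 3681 and 3249 FPKM at day 3 and 2886 and 2753 FPKM in pre-meiotic material. They summed to 48.6 and 67.2 FPKM at leptotene/zygotene and 132 and 117 FPKM at pachytene. Leydig markers summed to 913 and 985 FPKM at day 3 and 414 and 411 FPKM in pre-meiotic material. Their sums were 12.97 and 12.44 FPKM at leptotene/zygotene and 36.7 and 42.9 FPKM at pachytene. Stroma, myoid, endothelial and erythroid markers were also lower in both spermatocyte tables than in the other tables, and macrophage markers were not. Which cells carried the Trp53 pattern was not tested.

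Among the genes that control p53, more passed as lower than as higher at day 3. Of 17 such genes, 6 passed as lower in the second condition and 1 as higher, and 4 of 15 were at least 2-fold lower, with a median log2 ratio of -0.59. Of all genes at day 3, 9.97% passed as lower and 4.8% as higher, and 7.72% were at least 2-fold lower. Mdm4, a partner of Mdm2 that holds p53 inactive, had 9.77 FPKM in the second and 27.9 FPKM in the first condition (log2 -1.51, implied error 0.15). Usp7, which removes ubiquitin from Mdm2 and p53, had 51.0 and 133.9 FPKM (log2 -1.39, implied error 0.16). Hipk2, a kinase that activates p53, had 1.70 and 8.16 FPKM (log2 -2.20, implied error 0.21). The authors' deposited table lists q as 0 for these 3 genes. The acetyltransferases Crebbp (log2 -1.22) and Ep300 (log2 -0.90) and the damage sensor Trp53bp1 (log2 -0.83) also passed as lower. Rchy1, a ubiquitin ligase for p53, passed as higher at 44.6 and 33.4 FPKM (log2 0.42, implied error 0.16), with q = 0.0479 in the authors' deposited table, but its locus in the table spans 931 kb and may hold other genes. The loci of Hipk2 (390 kb), Crebbp (129 kb) and Trp53bp1 (113 kb) are in the longest span group. In it 28.0% of the genes with at least 1 FPKM in a condition passed as lower. Usp7 (103.6 kb) and Ep300 (66.7 kb) are in the next, with 21.8%, and Mdm4 (35.5 kb) in the one below, with 12.6%. The shorter groups had 7.93%, 3.21% and 2.05%. The 9.97% above is of all tested genes, also those below 1 FPKM, so it is not a like background for these shares.

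Of 26 further p53 targets, 5 passed as higher and 2 as lower at day 3, and their median log2 ratio was 0.15, where 4.8% of all genes passed as higher and 9.97% as lower. The 5 were Gdf15, a secreted stress factor (log2 0.89, implied error 0.27), Sfn, the arrest protein 14-3-3 sigma (log2 0.85, implied error 0.31), Rps27l, a ribosomal protein paralogue (log2 0.79, implied error 0.24), Psrc1 (log2 0.78, implied error 0.16) and Dcxr (log2 0.72, implied error 0.20). Each of these 5 loci spans 1.61 to 4.39 kb, in the shortest span groups. There 7.76% and 10.7% of the genes with at least 1 FPKM in a condition passed as higher. The 2 that passed as lower were Trp53i11 (log2 -0.53, implied error 0.17) and Sulf2 (log2 -0.47, implied error 0.13). The locus of Trp53i11 spans 14.2 kb and that of Sulf2 163 kb. None of the 26 was past 2-fold.

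Of 25 genes of the apoptosis machinery, 3 passed as higher and 4 as lower at day 3, with a median log2 ratio of -0.057, beside the same 4.8% and 9.97% of all genes. Apaf1, which builds the apoptosome and is itself a p53 target, had 28.2 FPKM in the second and 16.1 FPKM in the first condition (log2 0.80, implied error 0.19). Birc5, survivin, an inhibitor of apoptosis that also acts in mitosis, had 114.8 and 63.2 FPKM (log2 0.86), and the BH3-only gene Bad had 42.4 and 27.8 FPKM (log2 0.60). The 4 lower genes were the BH3-only genes Bmf (log2 -0.81) and Bcl2l11 (log2 -0.73), the caspase inhibitor Xiap (log2 -0.72) and the caspase gene Casp2 (log2 -0.66). The 7 thus include activators and inhibitors of death in both directions.

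Of 18 cell cycle genes, 3 passed as higher and 1 as lower at day 3, with a median log2 ratio of 0.049, again beside 4.8% and 9.97% of all genes. The kinase gene Cdk4 had 851.8 FPKM in the second and 606.7 FPKM in the first condition (log2 0.49). The inhibitors Cdkn2d (log2 0.89, implied error 0.32) and Cdkn2c (log2 0.60, implied error 0.20) were also higher. The cyclin gene Ccnd2 was lower (log2 -0.84, implied error 0.30). The higher genes have short loci, Cdkn2d 2.75 kb, Cdkn2c 6.31 kb and Cdk4 6.73 kb, and Ccnd2 a long one of 86.6 kb. These directions are those of the day 3 span groups of all genes, and the part of span was not tested.

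**Figure D5:**
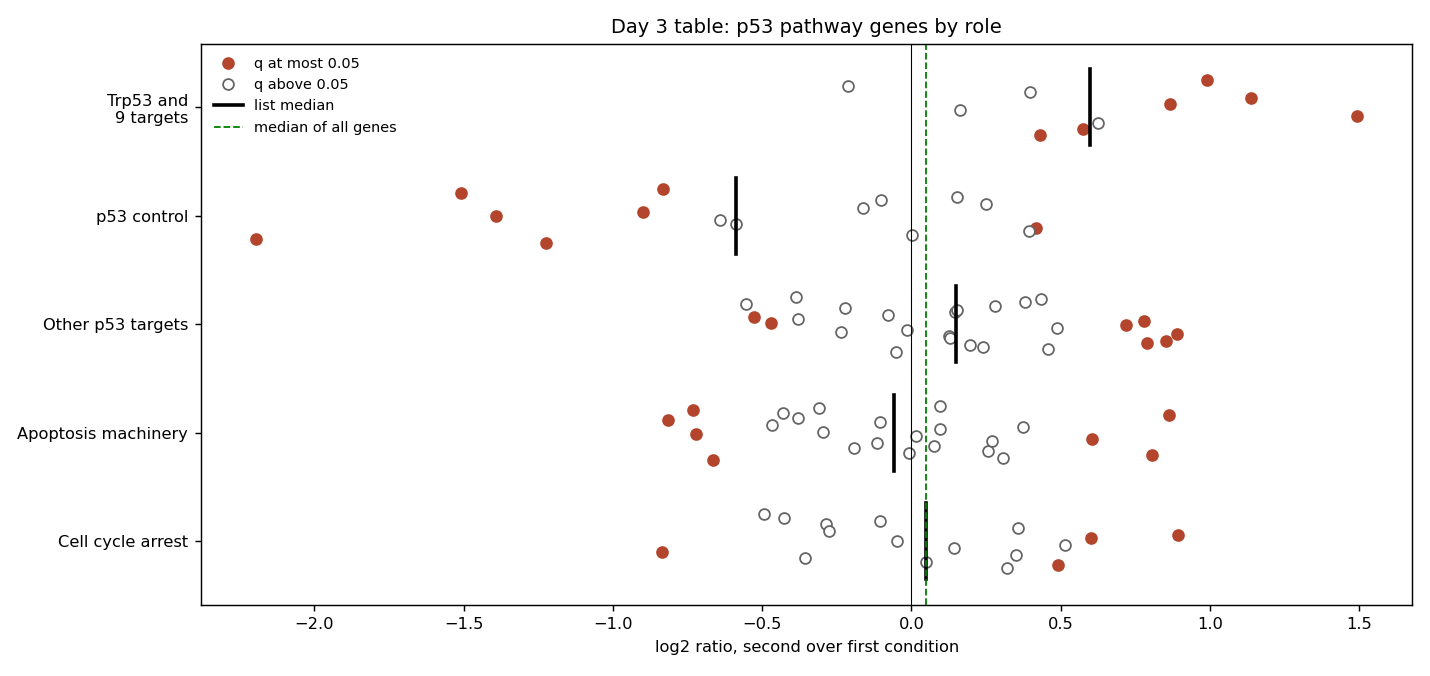
Day 3 log2 ratio (second over first condition) of the 10 genes and of the 4 lists of pathway genes, each point a gene, filled where the authors' q-value was at most 0.05, with a black bar at the list median. The median is 0.60 for the 10 genes and -0.59 for the genes that control p53, and the dashed line marks all genes at 0.049.

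In the later tables few pathway genes passed. Btg2, an antiproliferative p53 target that also responds quickly to stimulation, had 7.54 FPKM in the second and 2.24 FPKM in the first condition at leptotene/zygotene (log2 1.71, implied error 0.34), with q = 7.86e-05 in the authors' deposited table. At pachytene it had 10.9 and 2.60 FPKM (log2 2.03, implied error 0.40), with q = 0.0001 in the authors' deposited table. Crebbp (log2 -0.98) and Trp53bp1 (log2 -0.57) passed as lower at pachytene, and Sulf2 (log2 0.56) as higher in pre-meiotic material. Past 2-fold but not past the q-value was Cdkn2b in pre-meiotic material (log2 1.11, implied error 0.73). At leptotene/zygotene these were Bmf (log2 2.47, implied error 1.66), Gadd45a (log2 -1.86, implied error 0.86) and Rrm2b (log2 -1.82, implied error 0.95). Also among them were Cdkn2b (log2 -1.17, implied error 0.996), Rbl1 (log2 -1.05, implied error 0.46) and Rb1 (log2 -1.03, implied error 0.51). Several were low: in the second and first condition Bmf had 3.18 and 0.493 FPKM, Rrm2b 0.232 and 1.07 FPKM and Cdkn2b 0.423 and 1.08 FPKM. Rb1 was higher, at 11.5 and 23.7 FPKM. Past 2-fold but not past the q-value at leptotene/zygotene were also 3 further targets, named here after their values were seen. They were Lrdd (log2 1.498, implied error 0.98), Aen (log2 -1.48, implied error 0.60) and Plk2 (log2 1.11, implied error 0.35). At pachytene the genes past 2-fold but not past the q-value included Fasl (log2 -1.25, implied error 0.90) and Atm (log2 -1.24, implied error 0.47). Plk2 (log2 1.12, implied error 0.37) and Sulf2 (log2 1.12, implied error 0.73) were also among them. Of the 25 further targets that could be compared, 23 were lower in the leptotene/zygotene than in the pre-meiotic table and 19 lower in the pachytene than in the pre-meiotic table, and none was higher in either. Of all genes 49.7% were lower and 24.4% higher in the first of these comparisons, and 44.6% lower and 24.3% higher in the other. Of 25 apoptosis genes, 18 were lower and 1 higher in the first, and 16 lower and 2 higher in the other. Of 15 genes that control p53 these were 8 and 1, then 7 and 2. Of 18 cell cycle genes they were 9 and 2, then 8 and 3. Whole testis is set here beside separated spermatocytes, and the part of the cell mixture was not tested.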

How the data were processed

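The 8 mRNA libraries were made from Trizol RNA with a TruSeq RNA kit and sequenced on a HiSeq2000, per the labels' protocols. No strand-keeping step is named there, so antisense and overlapping genes cannot be told apart. The 2 small RNA libraries were not analysed here. Per the submitters' processing notes, Cuffdiff, Cufflinks 1.1.0, Bowtie 0.12.7 and TopHat 1.3.0 were used. The sources used here do not name the genome build.

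Per the file headers, the authors deposited in each of 4 tables, for 36806 genes and 2 conditions, the FPKM per condition, a test statistic with its p-value and q-value, and a log2 fold change. The log2 fold and the test statistic were handled as scores, since the authors put extreme placeholder values where a condition is at 0. All 8 FPKM columns were used by stage and condition number, with no genotype. The p-values and q-values deposited by the authors were copied, not recomputed. They compare a pair of libraries and say nothing of the spread between mice.

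Computed here, with Python 3.11.15, pandas 2.3.3 and numpy 2.4.6, were log2 ratios of FPKM plus 0.1, implied errors, percentiles, counts, medians and motif searches. The code of the fold calls was run on FPKM of at least 5 with changes put in that were larger than the called fold. That run checks the code only, not the q-value counts, lower values or smaller changes. A gene was called where the authors' q-value was at most 0.05, or past 2-fold where its ratio was at least 2-fold and a condition had at least 1 FPKM. Rows marked as failed by the authors were left out. The ratio of depths comes from genes with both values above 0 and below 0.3 FPKM, where the most frequent ratio is that of 1 read to 1 read. Cdkn1a, Bax and the other targets, the pathway lists and the markers were chosen with earlier results of these data known. Pathway genes were found by symbol or by current symbol through the gene ID, which 31840 IDs matched, and 7 of 8 Sertoli markers were found. Named are all 10 genes, Ago4, each list's genes past the q-value, up to 3 per list and table past 2-fold, and the 3 genes most like Trp53 and Cdkn1a. The alternatives tried were other pseudocounts, filters, folds, thresholds, centring and scaling.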

Additional observations from a re-analysis of the deposited data

How the results depend on the processing

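Of the 6 genes past the q-value at day 3, none changed sign under centring, the only kind of setting here that could change a sign. With span centring several log2 ratios fell by more than their implied error. Trp53 went from 0.43 to 0.19, Bax from 0.58 to 0.34, Bbc3 from 1.14 to 0.90 and Phlda3 from 0.87 to 0.50. Fas went from 1.49 to 1.09 with a pseudocount of 1 FPKM, also more than its implied error. Depth limits the low genes, and with 1 library per condition no replicate could be left out. No paired analysis was possible because each condition of a table holds 1 library. At day 3 the 2 genes past 2-fold became 1 with at least 5 FPKM, 1 with centring on genes of like locus span and 5 at 1.5-fold, and the median of 0.60 became 0.36 with that span centring, which was chosen after seeing the data. At leptotene/zygotene the 1 gene past 2-fold became 0 with a pseudocount of 1 FPKM, 0 with at least 5 FPKM and 2 with no filter. At pachytene 0 became 1 with a pseudocount of 0.01, 1 with span centring and 3 at 1.5-fold, and the count past the q-value of 0 became 1 at an unadjusted p of 0.05 in the authors' deposited table. With the columns scaled to the same upper quartile, 1 gene was lower in pre-meiotic material than at day 3, 2 were higher at leptotene/zygotene than in pre-meiotic material and 1 was higher at pachytene than at leptotene/zygotene. With no minimum gap between the values, 1 gene was higher and 8 lower in pre-meiotic material than at day 3, 2 were higher at leptotene/zygotene than in pre-meiotic material, and 5 were higher and 1 lower at pachytene than at leptotene/zygotene. The cause was not tested. The other 61 counts and medians under alternatives stayed within 1.5 times the count or within the implied error. For a median that error is the median of single-gene errors, 0.61 at leptotene/zygotene and 0.46 at pachytene. It is larger than those medians, so it could hardly show a change. The pachytene median went from -0.016 to 0.13 with no filter, and the pre-meiotic from 0.0019 to -0.0097 with span centring.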

Other observations

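The motif search was also run over the promoter windows of the pathway lists. The adjacent pair of p53 decamers, with the cores exact and up to 3 of the other 12 letters off, occurred in 4 of the 20 matched further p53 targets: Aen, a nuclease induced by p53, Ckap2, Rps27l and Tigar. It occurred in 0 of 15 genes that control p53, in 0 of 22 genes of the apoptosis machinery and in 0 of 11 cell cycle genes. In the whole promoter set it occurred in 182 of 27025 genes. The full form, a pair of exact decamers, occurred in none of these lists. Of the 4 genes, Rps27l was past the authors' q-value at day 3, at 254.8 FPKM in the second and 147.5 FPKM in the first condition, with q = 0.00956 in the authors' deposited table.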
